A study of Mus musculus with 4 samples.

Results

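The genes described here are 36 genes of integrins and of the focal adhesions that integrins build: 19 integrin subunits and 17 others, among them talins, kindlin, vinculin, the kinases Ptk2 and Src and the collagen receptors Ddr1 and Ddr2. They were taken by name through the RefSeq accession of each array probe, and each was represented by its brightest probe. Of the 36 listed genes, 35 had a named probe and 31 passed the filter on dim signals, out of 13567 genes tested in all. The filter asked for a call of well above background, by the scanner software, with shControl or with all 3 Islr hairpins, and all 31 were above background on all 4 arrays.

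The cells were mouse MSCs (mesenchymal stromal cells) in primary culture, at passage 5, and carried short hairpin RNAs from a retroviral vector. The control group (shControl) was 1 culture with a control hairpin, whose target the labels do not name. The knockdown group (shIslr) was 3 cultures, each with a hairpin against a different sequence of Islr, the gene of the surface and secreted protein Meflin, and these are called hairpins 1, 2 and 3 after their label numbers. Mouse strain, age and number of animals are not given in the sources used here. Each culture was measured on 1 one-colour array, so the spread between the 3 hairpins mixes hairpin, culture and array, and the control has no spread of its own.

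Integrins are cell surface receptors made of 1 alpha and 1 beta subunit that tie the extracellular matrix to the actin skeleton. The alpha subunit largely sets the ligand. Some bind collagens, some bind proteins with the Arg-Gly-Asp (RGD) motif such as fibronectin and vitronectin, and others bind laminins. Talin and kindlin bind the beta tail and switch the receptor on, and vinculin, alpha-actinin and filamin tie it to actin. The kinases Ptk2 (FAK) and Src and the scaffold protein Ilk carry the signal inward. Stromal cells use these receptors to spread on and remodel collagen and fibronectin matrix.

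Differences below are log2, hairpin array minus control array, after subtraction of each array's 75th percentile, and means are given ± SD over the 3 hairpins (n = 3). In the tests with limma, whose p-values were adjusted over all 13567 genes by the Benjamini-Hochberg method, a gene was called at an adjusted p under 0.05. The number of arrays limits the precision. The knockdown was visible in the target itself: Islr, which read 454 with shControl, was 6.33-fold lower on hairpin 2, where 15.8% of it was left, and was not above background on the other hairpin arrays. Set against the lowest signal called above background on those arrays, Islr was lower by 20.5-fold on hairpin 1 and 29.6-fold on hairpin 3. These are no strict bounds, since some uncalled probes read higher than that signal. The mean difference of Islr over the measured signals was -4.98 ± 2.19, and limma did not call it (adjusted p = 0.964). A gene that limma did not call is thus not shown to be unchanged. The 4 arrays had between 49.4% and 53.8% of their 59305 features above background, none was saturated, and 75th percentiles of the signal lay between 415 and 442. All 11 stromal marker genes looked up, among them Pdgfra, Thy1, Cd44 and Col1a1, were above background on all 4 arrays. Among probes spotted 10 times on each array, the median SD between spots was 0.063 to 0.068 log2, which is the error within an array and not between cultures.

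The subunit genes Itgb7 and Itga3 were at least 1.5-fold above the control on every hairpin, while Itgb1, the shared beta subunit of most matrix receptors of stromal cells, lay close to the control. Their promoter windows, from 250 bases before to 50 after the start of the gene in RefSeq (GRCm38.p6), are shown because the account of the integrins turns on these 3 genes. The Itgb7 window is chr15:102231886-102232185 on the minus strand, that of Itga3, the first of 2 in the table, is chr11:95076665-95076964 on the minus strand, and that of Itgb1 is chr8:128685404-128685703 on the plus strand. Capitals mark matches on either strand to the GC box GGGCGG or to the TEAD motif GGAATG.
Itgb7: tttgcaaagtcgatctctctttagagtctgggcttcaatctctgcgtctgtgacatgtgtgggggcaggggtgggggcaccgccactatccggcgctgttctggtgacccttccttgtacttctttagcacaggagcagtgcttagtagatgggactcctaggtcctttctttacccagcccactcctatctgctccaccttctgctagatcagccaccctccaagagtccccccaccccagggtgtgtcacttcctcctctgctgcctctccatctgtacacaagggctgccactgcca
Itga3: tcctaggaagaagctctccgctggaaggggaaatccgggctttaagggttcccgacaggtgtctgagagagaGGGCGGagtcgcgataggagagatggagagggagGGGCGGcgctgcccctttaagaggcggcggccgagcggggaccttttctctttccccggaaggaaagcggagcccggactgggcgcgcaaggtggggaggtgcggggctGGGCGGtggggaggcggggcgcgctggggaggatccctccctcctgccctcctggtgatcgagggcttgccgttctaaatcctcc
Itgb1: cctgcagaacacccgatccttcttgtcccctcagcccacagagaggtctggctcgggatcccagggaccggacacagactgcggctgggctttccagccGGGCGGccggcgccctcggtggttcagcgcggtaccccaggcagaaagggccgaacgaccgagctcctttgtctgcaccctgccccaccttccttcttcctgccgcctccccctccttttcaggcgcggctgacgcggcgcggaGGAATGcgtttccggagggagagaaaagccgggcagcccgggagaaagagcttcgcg
The Itga3 window held 3 GC boxes, that of Itgb1 held 1 GC box and 1 TEAD motif, and that of Itgb7 held neither. Of all 32851 windows in the table, 35.7% held a GC box and 14.7% a TEAD motif. Among the 28 listed genes with a window, the first one in the table held a GC box in 17 (60.7%) and a TEAD motif in 4 (14.3%). The shares over all windows count every window of each gene, so these sets are unlike and no enrichment is read from them. The RUNX motif TGTGGT and the TATA box TATAAA, in 16.8% and 13.6% of all windows, were in none of the 3 shown. The GC content was 56.3% for Itgb7, 66.7% for Itga3 and 67.3% for Itgb1, and the median over all windows was 52.7%.

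Taken as a family, integrin genes differed between the arrays by more than the genes of the proteins behind them. No listed gene was called by limma in either direction, where 0.346% of all genes were called, every one of them lower and none of them above background on all 4 arrays. At an unadjusted p under 0.05, limma gave 2 of the 31 tested genes, Itgb7 and Itga3, where 4.83% of all genes and 3.05% of the 12716 genes above background on all 4 arrays reached it. On every hairpin this pair exceeded the control by 1.5-fold or more, as did 0.958% of all genes and 0.723% of those above background. Of the listed genes, 0 were that much lower on every hairpin, where 3.04% of all genes and 1.29% of those above background were. At 2-fold lower the count was also 0, beside 1.69% of all genes and 0.315% of those above background. Since every difference shares the single control array, its own noise moves all 3 hairpins together, and such counts are descriptions.

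**Figure D1:**
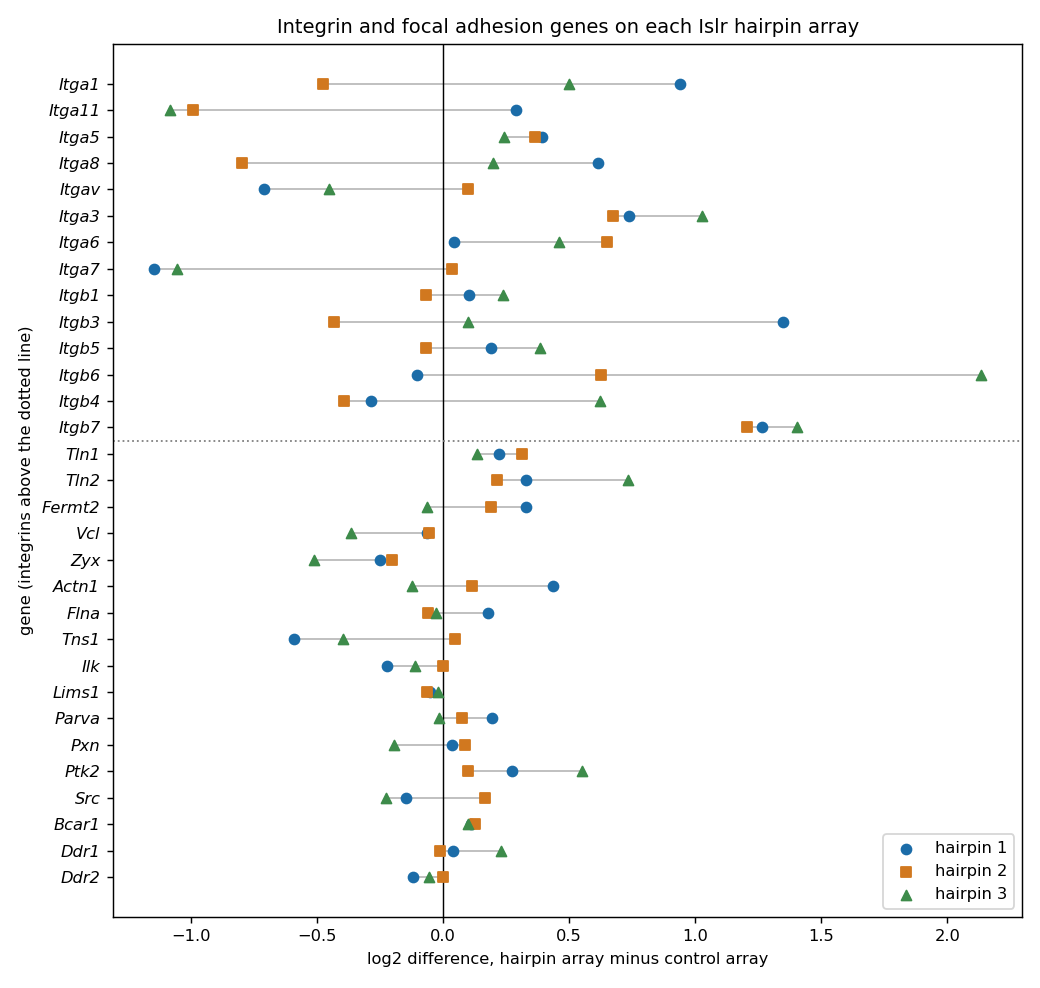
Log2 difference of each hairpin array from the control array (x axis) for the 31 tested genes (y axis), with 1 point per hairpin and a grey line over their range; integrins are above the dotted line. Itgb7 (1.21 to 1.40) and Itga3 (0.67 to 1.02) lie right of 0 on all 3 hairpins, and most genes below the dotted line lie within 0.5 of it.

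Of the laminin-binding alpha subunits, Itga3 and Itga6 were higher on all 3 hairpins and Itga7 was not. Itga3, which pairs with beta1 in the laminin receptor of adherent cells, read 1295 with shControl, against 2020.4, 2029.6 and 2581 with hairpins 1, 2 and 3 (processed signal). All 3 hairpin arrays were thus above the control, and hairpin 3 was the highest. Its mean difference was 0.81 ± 0.19 (1.75-fold), with a 95% interval of 0.19 to 1.43 in limma and an adjusted p of 0.854.

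Itga6, a laminin receptor subunit that pairs with beta1 or beta4, read 4537 with shControl, against 4385, 7002 and 6116 with hairpins 1, 2 and 3 (processed signal). After scaling it was higher by 0.04, 0.65 and 0.46, so that hairpin 1 lay next to the control and the other two apart from it. The mean was 0.38 ± 0.31, and limma's interval ran from -0.41 to 1.18 (adjusted p = 0.964). Itga7, the laminin receptor subunit best known from muscle and pericytes, read 2233 with shControl, against 945, 2252 and 1053 with hairpins 1, 2 and 3 (processed signal). Hairpin 2 sat at the control level (0.04), while hairpins 1 and 3 lay below it, at -1.15 and -1.05. The mean of -0.72 ± 0.66 was close to its spread (limma adjusted p = 0.964). Itgb4, the beta subunit that pairs only with alpha6, lay on both sides of the control at -0.29, -0.39 and 0.62, with an shControl signal of 326.

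Collagen-binding alpha subunits showed no common direction. Itga11, the main collagen receptor subunit of fibroblasts and MSCs, read 13937 with shControl, against 15958, 6897 and 6434 with hairpins 1, 2 and 3 (processed signal). Hairpin 1 was near the control (0.29), and hairpins 2 and 3 lay below it, at -0.99 and -1.09. The mean was -0.60 ± 0.77, with limma's interval from -2.25 to 1.06 (adjusted p = 0.967). Without hairpin 1 it was -1.04, and limma still did not call it.

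Itga1, a collagen receptor subunit with a preference for basement membrane collagen, read 52.2 with shControl, against 93.7, 36.9 and 72.2 with hairpins 1, 2 and 3 (processed signal). Its differences of 0.94, -0.48 and 0.50 straddled the control, and a second probe of the gene read lower on all 3, at -0.0044, -0.69 and -0.11. The probes disagreed on hairpins 1 and 3, and both read lower on hairpin 2. Itga2, the platelet and epithelial collagen receptor subunit, was not above background on the control array (signal 10.9) or hairpin 2, was above it on hairpins 1 and 3 (32.0 and 19.0), and was therefore outside the tested genes. On hairpin 1 it was, after scaling, 1.77-fold above the lowest signal that any probe called above background had with shControl. Some uncalled probes read higher than that signal, so this is no strict bound. Itga10 had no probe named by accession. The discoidin domain receptors, tyrosine kinases that bind collagen without integrins, lay near the control: Ddr1 was at 0.08 ± 0.13 and Ddr2 at -0.06 ± 0.06, with limma's intervals from -0.46 to 0.63 and from -0.55 to 0.43.

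**Figure D2:**
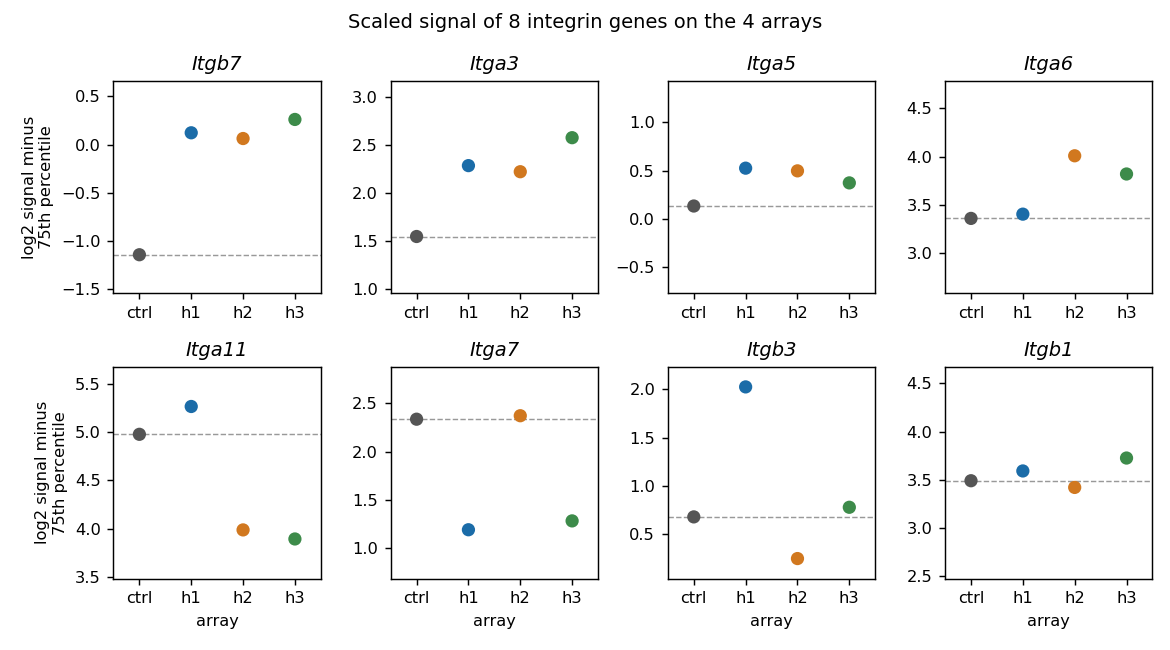
Log2 processed signal minus the array's 75th percentile (y axis, own range but equal span in each panel) on the control array and on hairpins 1 to 3 (x axis) for 8 integrin genes, with 1 point per array and a dashed line at the control. All hairpins lie above the line for Itgb7, Itga3, Itga5 and Itga6, while Itga11, Itga7 and Itgb3 have hairpins on both sides of it and Itgb1 stays near it.

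Among RGD-binding alpha subunits, the fibronectin receptor subunit Itga5 was the 1 gene on the same side of the control on all 3 hairpins. It read 485 with shControl, against 597, 614 and 561 with hairpins 1, 2 and 3 (processed signal). The hairpins lay close together above the control, at 0.39, 0.36 and 0.24, with a mean of 0.33 ± 0.08 (1.26-fold). Limma's interval included 0 (-0.17 to 0.84, adjusted p = 0.964).

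Itgav, the alpha subunit shared by the vitronectin receptors and by the integrins that release active TGF-beta, read 773 with shControl, against 443, 814 and 554 with hairpins 1, 2 and 3 (processed signal). It was lower on hairpin 1 (-0.71) and hairpin 3 (-0.45) and at the control level on hairpin 2 (0.10), and a second probe showed the same order (-0.52, -0.21 and 0.15 for hairpins 1, 3 and 2). Itga8, the nephronectin receptor subunit of mesenchymal cells, read 136 with shControl and was at 0.62, -0.80 and 0.20. Hairpin 2 was the low one, and the mean of 0.01 ± 0.73 was far below its spread.

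Set side by side, the class medians on hairpins 1, 2 and 3 were 0.61, -0.73 and -0.29 for the 2 tested collagen-binding subunits, 0.39, 0.10 and 0.20 for the 3 RGD-binding ones and 0.04, 0.65 and 0.46 for the 3 laminin-binding ones. The median over all genes tested was -0.01, 0.00 and 0.05. On hairpin 1 the laminin-binding class thus had the lowest median and on hairpins 2 and 3 the highest, so that no order of the classes held on all 3 arrays. Within each class, members lay on both sides of the control on at least 1 hairpin.

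Of the beta subunits, Itgb7 stood apart from the rest. It encodes the beta7 subunit, which is best known from lymphocytes that home to the gut. Its probe (A_51_P359603, accession NM_013566) read 200.5 with shControl, against 452, 455 and 519 with hairpins 1, 2 and 3 (processed signal), so that the 3 hairpins lay close together and all above the control. The difference was 1.26, 1.21 and 1.40 log2, with a mean of 1.29 ± 0.10 (2.45-fold). The limma interval ran from 0.77 to 1.81 (unadjusted p = 0.00185, adjusted p = 0.252), so the gene was not called. It was 1 of the 31 listed genes at least 2-fold higher on all 3 hairpins, where 0.236% of all genes tested and 0.0944% of the 12716 above background on all 4 arrays were.

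The known alpha partner gene Itga4 was below background on all 4 arrays (highest signal 9.19, with shControl), as was the related Itga9, and the other partner gene, Itgae, had no probe named by accession. Of 14 leukocyte marker genes, 7 were above background on all 4 arrays (Cd68, Csf1r, Itgam, Itgb2, Cd14, Cd3e and Nkg7), 6 were below it on all 4 and Cd79a was above it on hairpin 3 alone. The pan-leukocyte gene Ptprc and the myeloid genes Spi1, Tyrobp, Lyz2 and Adgre1 were among those below background throughout. The summed level of the 14, as a multiple of each array's 75th percentile, was 29.6 with shControl and 31.2, 26.3 and 20.5 with hairpins 1, 2 and 3. Itgam made up most of that sum on each array, at 0.07, -0.21 and -0.81 from the control, while Cd14 was higher on all 3 hairpins, at 0.77, 0.45 and 0.46. The part of leukocyte RNA in the Itgb7 values was not tested. In such bulk samples, more cells of a type and more RNA per cell cannot be told apart.

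Itgb1 read 4969.8 with shControl, against 4998, 4659.7 and 5732 with hairpins 1, 2 and 3 (processed signal), on both sides of the control at 0.10, -0.07 and 0.24. Its mean was 0.09 ± 0.15 with limma's interval from -0.48 to 0.66, and a second probe had a mean of 0.04. Itgb5, a vitronectin receptor subunit that pairs with alphav, was at 0.17 ± 0.23 with an shControl signal of 9693.

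Itgb3, which pairs with alphav in the osteopontin and vitronectin receptor, was high on 1 hairpin. It read 708 with shControl, against 1689, 516 and 743 with hairpins 1, 2 and 3 (processed signal), so that hairpin 1 was above the control (1.35), hairpin 2 below it (-0.43) and hairpin 3 near it (0.10). A second, dimmer probe gave 1.53, -0.13 and 0.23 in the same order. Itgb6, an epithelial subunit whose receptor activates latent TGF-beta, read 47.6 with shControl, against 41.6, 72.2 and 205 with hairpins 1, 2 and 3 (processed signal), and hairpin 3 stood alone at 2.13. The second Itgb6 probe was below background on all 4 arrays. Of 8 epithelial marker genes, Krt18 and Cldn7 were above background on all 4 arrays and Epcam, Cdh1 and Krt8 on none, and their summed level was 0.556 with shControl and 0.538, 0.710 and 0.564 with the hairpins. Both Itgb3 and Itgb6 had means below their spread (0.34 ± 0.91 and 0.89 ± 1.14) and were not called by limma (adjusted p = 0.981 and 0.967). Itgb8, a beta subunit whose receptor also activates latent TGF-beta, was below background on all 4 arrays.

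**Figure D3:**
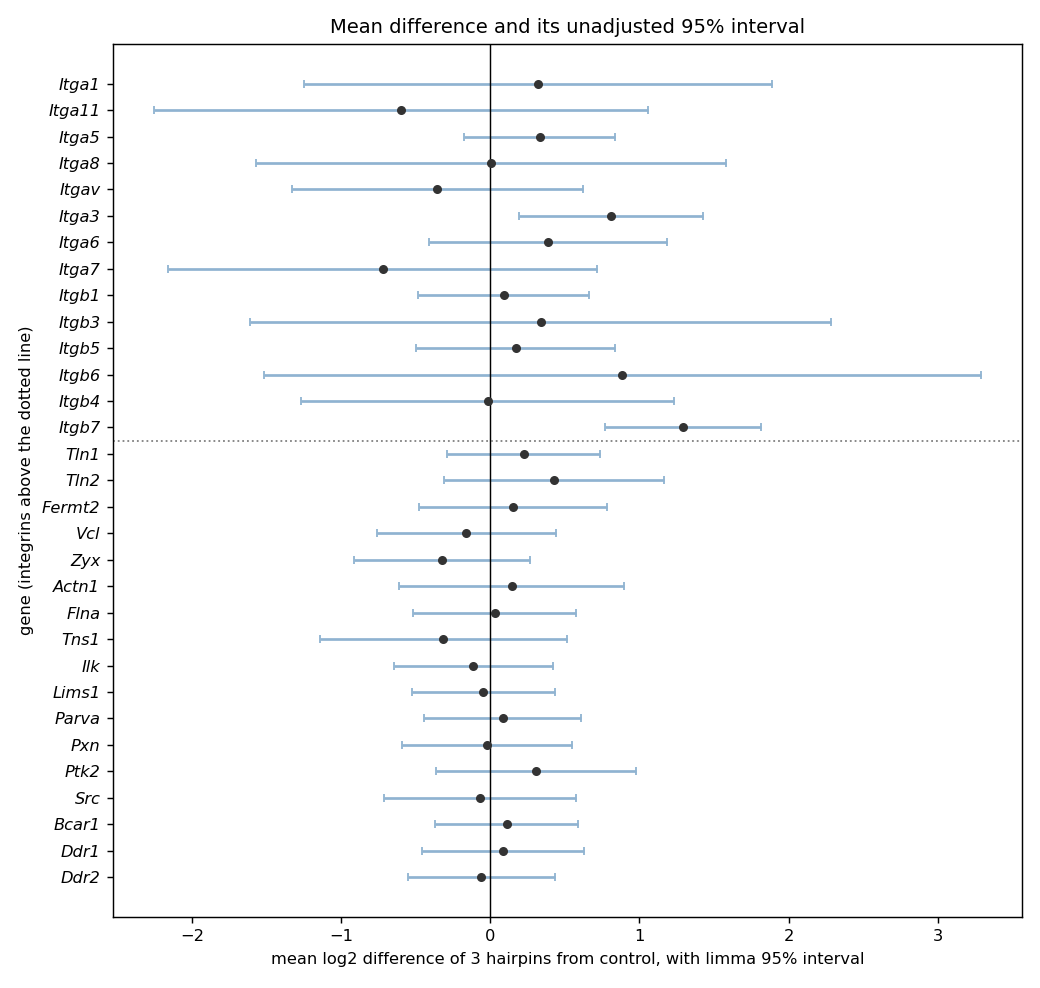
Mean log2 difference of the 3 hairpins from the control array (points, x axis) with limma's 95% interval, not adjusted for the number of genes (bars), for the 31 tested genes (y axis). The intervals of Itgb7 (0.77 to 1.81) and Itga3 (0.19 to 1.43) leave out 0, and those of the other genes include it.

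The genes of the integrin activators had means above the control. Talin-1 (Tln1), which links the beta tail to actin, read 38753 with shControl, against 42364, 47387 and 41682 with hairpins 1, 2 and 3 (processed signal), each above the control, with a mean of 0.22 ± 0.09 (1.17-fold). A second probe of Tln1 gave 0.48, 0.45 and 0.47. Tln2, the other talin, was at 0.33, 0.21 and 0.73 (mean 0.42 ± 0.27) with an shControl signal of 90.4. The kindlin gene Fermt2 was at 0.33, 0.19 and -0.06. None was called by limma (adjusted p = 0.964 for both talins and 0.972 for Fermt2).

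Of the 5 actin-linking genes, 2 were lower on all 3 hairpins and 0 were higher on all 3, where 24.6% and 27.6% of all genes tested were. With 5 genes, no trend is read from these counts. Zyx, the gene of zyxin, a protein of mature and tension-bearing adhesions, read 97106 with shControl, against 76505, 83080.4 and 66644 with hairpins 1, 2 and 3 (processed signal), all 3 below the control, at -0.25, -0.20 and -0.51 (mean -0.32 ± 0.17, 1.25-fold lower, limma adjusted p = 0.964). The vinculin gene Vcl was also lower on all 3, at -0.06, -0.05 and -0.36, though a second probe read 0.17, 0.05 and -0.31. The alpha-actinin gene Actn1 (0.14 ± 0.28) and the filamin gene Flna (0.03 ± 0.13) had hairpins on both sides. Tns1, the gene of the fibrillar adhesion protein tensin-1, was lower on hairpins 1 and 3 (-0.59 and -0.40) and at the control level on hairpin 2 (0.05), and its second probe gave -0.67, -0.50 and 0.08 for the same arrays.

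Tns1 thus had the same order of arrays as Itga7 and Itgav. These 3 of the 31 genes were at least 1.3-fold lower on hairpins 1 and 3 and within 0.20 log2 of the control on hairpin 2, a rule written after their values were seen. It was met by 1.56% of all genes tested and by 1.44% of those above background on all 4 arrays. Hairpin 2 was the hairpin array on which Islr was above background, and a link of that to these genes was not tested. Itga11 had another order, with hairpins 2 and 3 low, and Itga8 and the brighter probe of Itga1 had yet another, with hairpin 2 low and the other hairpins above the control.

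Genes of the complex of Ilk, the PINCH protein Lims1 and parvin (Parva), which anchors beta tails to actin, differed from the control by 0.22 log2 or less on every array by their brightest probes. Ilk was at -0.22, 0.00 and -0.11, and Lims1 at -0.05, -0.06 and -0.02. The brightest probe of Parva gave 0.19, 0.07 and -0.02, while its 2 other probes had means of -0.26 and -0.19, so that its probes give no common direction. Among the signalling genes, Ptk2, the focal adhesion kinase gene, read 1372 with shControl, against 1555, 1446 and 1967 with hairpins 1, 2 and 3 (processed signal) and was higher on each (0.31 ± 0.23). Bcar1, the gene of the p130Cas scaffold that Ptk2 and Src phosphorylate, was at 0.11, 0.13 and 0.10. The paxillin gene Pxn (-0.02 ± 0.15) and the kinase gene Src (-0.07 ± 0.21) had hairpins on both sides of the control, from low control signals of 125 and 39.5.

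**Figure D4:**
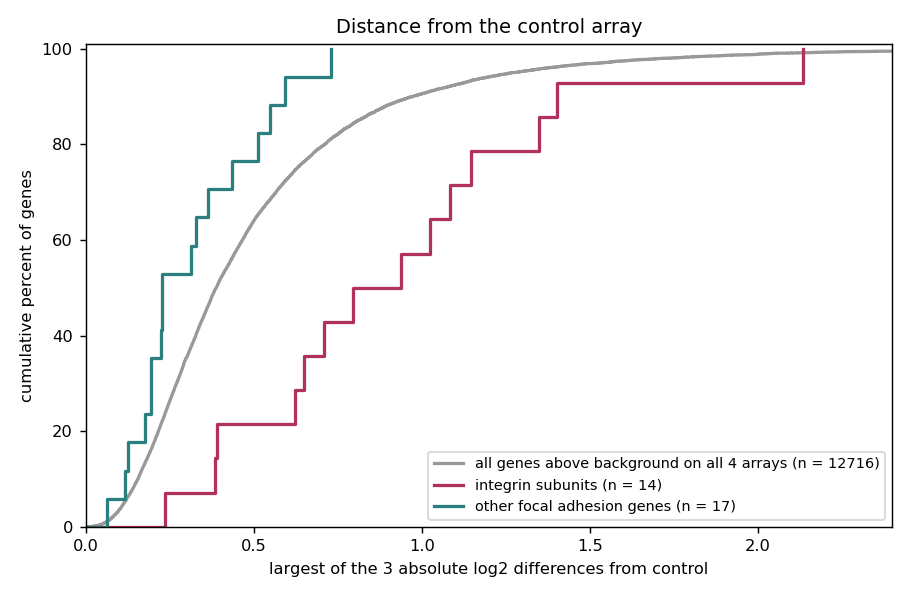
Cumulative percent of genes (y axis) by the largest of the 3 absolute log2 differences from the control array (x axis), for the 14 tested integrin subunits, the 17 other focal adhesion genes and the 12716 genes above background on all 4 arrays. The curve of the other focal adhesion genes lies left of that of all genes and the integrin curve right of it: 13 of 17, 63.9% and 3 of 14 stay below 0.5.

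Over the 17 genes that are not integrins, the root mean square difference from the control was 0.26, 0.14 and 0.31 on hairpins 1 to 3. Over the 14 integrins it was 0.73, 0.60 and 0.90, and over the 12716 genes above background on all 4 arrays it was 0.38, 0.43 and 0.54. The other adhesion genes stayed below 0.5 log2 on every hairpin in 13 of 17 cases (76.5%), the integrins in 3 of 14 (21.4%), and all genes above background in 63.9%. The same count was made among genes with a mean signal at or above the 75th percentile: 11 of 14 adhesion genes (78.6%), 3 of 9 integrins (33.3%) and 69.9% of 8444 genes. On both counts the integrins as a group were farther from the control than all genes were, while the share of the other adhesion genes was somewhat above that of all genes. By the median absolute difference, the other adhesion genes were not nearer on hairpin 1 (0.19 against 0.17 for all genes above background). On hairpins 2 and 3 they were, at 0.09 against 0.22 and 0.13 against 0.27. These are descriptions of these 4 arrays, with no test.

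On all 3 hairpins, 8 of the 31 genes were higher (Itga3, Itga5, Itga6, Itgb7, Tln1, Tln2, Ptk2 and Bcar1), where 27.6% of all genes tested and 28.8% of those above background on all 4 arrays were. In the other direction, 4 were lower (Vcl, Zyx, Lims1 and Ddr2), where 24.6% and 22.7% were. The share of 25.8% higher was thus near the background, and that of 12.9% lower was below it. These 8 genes kept their side under all 6 scalings tried, as did Vcl, Zyx and Ddr2, while Lims1 kept it under 5. Ilk, at 0.0002 on hairpin 2 in the scaling used here, was lower on all 3 hairpins under 5 of the 6. The count of lower genes ranged from 4 to 6 over these scalings. The median over the 14 integrins was 0.24, -0.02 and 0.31 on hairpins 1 to 3, and over the 17 others 0.04, 0.07 and -0.06.

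**Figure D5:**
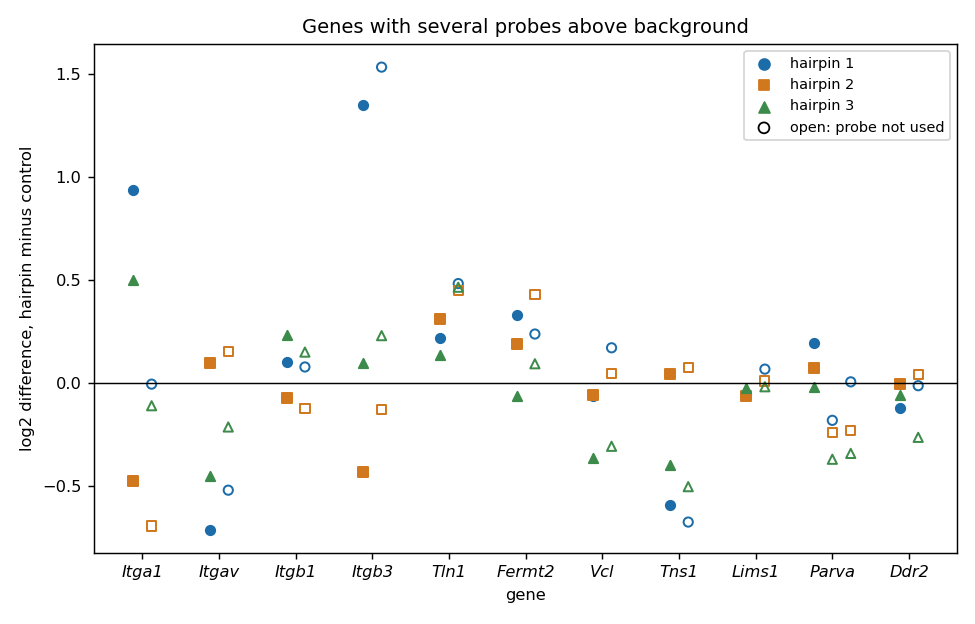
Log2 difference from the control array (y axis) for the 11 genes with several probes above background on all 4 arrays (x axis), with filled points for the probe used and open points for the others, and 1 symbol per hairpin. Probes of Itgb3, Tns1, Itgav, Itga1 and Parva repeat the same order of hairpins, and those of Itga1 and Parva lie at different levels, with means on both sides of 0.

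For 11 genes, several probes were above background on all 4 arrays, and the median gap between the mean difference of the probe used and that of another probe was 0.13 log2. The gap was over 0.3 in 2 genes, Itga1 (0.32 against -0.27) and Parva. The mean had the opposite sign in 3 genes: these 2 and Lims1. Itgb7, Itga3, Itga5, Itga6, Itga7 and Itga11 had 1 probe each, so their values had no second probe beside them.

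Genes around these receptors were read from lists of ligands, partners and further adhesion proteins. Of 117 tested genes in these lists, limma called 0, and 7 had an unadjusted p under 0.05, where 4.83% of all genes had one. With every hairpin, 28 were on the high side of the control and 27 on the low side, where 27.6% and 24.6% of all genes were, so that these counts were near the background. Among further integrins, 4 of 5 tested genes were lower on all 3 hairpins (24.6% of all genes): the platelet subunit Itga2b (-1.28 ± 0.37, with an shControl signal of 214), the integrin-like secreted protein gene Itgbl1 (-1.03 ± 0.74), the leukocyte subunit Itgb2 (-0.63 ± 0.43) and its partner Itgal (-0.28 ± 0.10). The summed level of the megakaryocyte and platelet list, which holds Itga2b, was 0.525 with shControl and 0.210, 0.360 and 0.215 with the hairpins. Its other genes were below background on all 4 arrays (Gp9, Pf4 and Ppbp) or above it on hairpin 2 alone (Gp1ba). Of 8 endothelial marker genes, 3 were above background on all 4 arrays (Pecam1, Kdr and Egfl7), and Cdh5, Tek, Tie1 and Emcn on none. The eighth, Vwf, was not above background with shControl (21.5) or hairpin 2 (16.6) and was above it on hairpins 1 (55.9) and 3 (188). Their summed level, lowest with shControl, was 12.0, 13.0 and 12.5 with hairpins 1, 2 and 3, and Kdr made up most of it on each array. What part cells of other types have in these values was not tested.

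Among collagens that serve as ligands, 5 of 11 tested genes were lower on all 3 hairpins (24.6% of all genes) and 1 was higher (27.6% of all genes), with Col3a1 at -1.35 ± 0.84 and Col4a2 at 0.53 ± 0.37. Of 13 RGD ligand genes, 3 were lower on all 3 (24.6% of all genes): the fibrillin gene Fbn1 (-0.81 ± 0.18), the alphav ligand gene Edil3 (-0.74 ± 0.08) and Tgfb3 (-0.37 ± 0.06). The other direction was taken by 2, Tnc (0.89 ± 0.30) and Ccn2 (0.51 ± 0.13), where 27.6% of all genes took it. Among laminin genes, Lamc1 was at 0.41 ± 0.39 and Lama2 at -0.48 ± 0.30.

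Of 16 tested surface partners, 7 were higher on all 3 hairpins (27.6% of all genes and 28.8% of those above background on all 4 arrays), among them the integrin-binding protease gene Adam12 (0.85 ± 0.09), the urokinase receptor gene Plaur (0.87 ± 0.42) and the proteoglycan gene Cspg4 (1.22 ± 0.94, highest on hairpin 3 at 2.26). The tetraspanin genes Cd63 and Cd81 were lower by small amounts (-0.18 ± 0.07 and -0.19 ± 0.07). Of 31 further scaffold and actin-linking genes tested, 9 had every hairpin above the control and 7 had every hairpin below it, where 27.6% and 24.6% of all genes had. The actin-binding supervillin gene Svil was the lowest (-1.04 ± 0.25), and the parvin gene Parvb (0.58 ± 0.07) and Sorbs2 (1.28 ± 0.64) were higher. Of 33 further signalling genes, 7 had every hairpin above the control and 3 every hairpin below it, against the same shares.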

How the data were processed

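Per the file headers, the authors used version 11.5.1.1 of Agilent Feature Extraction and its protocol GE1_1105_Oct12, on arrays of design 028005 (build mm9) from 1 slide. The deposited values used are processed signal intensity per feature, background-subtracted and detrended within an array. The deposited series table holds that intensity times 1 factor per array, for a reason not given in the sources used here. Per the labels, cRNA was labelled with Cy3 after linear amplification.

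Repeated features of 1 probe gave 1 mean log2 value, after subtraction of each array's 75th percentile. Of 55681 probes, 28026 had a gene symbol through an accession in the RefSeq table (GRCm38.p6), and the others were not used. The brightest kept probe stood for a gene. The test was that of limma 3.58.1 (R 4.3.3, two-sided), 3 hairpin arrays against 1 control array, so that the spread between hairpins stands for that of the control. Whether the cultures are separate preparations is not given in the sources used here, and p-values measure only the spread between these samples. The test was tried on simulated data in which the control had the same spread as the hairpins. That trial therefore could not check whether this holds for the real control array. All 36 genes were to be described, with Islr, cell type markers and up to 3 genes per direction of each further list. Genes and lists were chosen with earlier results of these data known. Itgal and Gp1ba, with other platelet genes, were named in passing. Some genes of these lists are not reported here.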

Additional observations from a re-analysis of the deposited data

Results flagged for a closer look

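A probe of Itga2, outside the comparison because it was not above background on the control array (signal 10.9), had a signal of 32.0 on hairpin 1 and was above background on hairpins 1 and 3. A second probe of Tln2, not above background on the control array (signal 20.7), had a signal of 38.2 on hairpin 3, where the probe used for Tln2 was also at its highest (0.73).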

How the results depend on the processing

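No paired analysis was possible because there was only 1 control array for the 3 hairpin arrays, and that control array could not be left out. The alternatives were 3 other scalings, normexp background correction (on median spot signals), the series table, 2 other filters, the mean over probes, removal of features with outlier flags, an intensity trend and each hairpin left out. Limma called 0 listed genes under every one of them. The adjusted p of Itgb7 ranged from 0.219 to 0.98, the last where only genes above background on all 4 arrays were tested. Over all genes, 47 calls (all lower) became 75 with quantile normalization and 0 with normexp, no filter, the stricter filter, the trend or any hairpin left out. Itgb7 and Itga3 stayed 1.5-fold or more above the control on all hairpins used. Without hairpin 1 Itgb6 joined them, and without hairpin 2 Itga2, giving 3 genes (2 without hairpin 3). The count at least 1.5-fold lower, 0, became 1 with no filter (Itga4, which is below background), without hairpin 1 (Itga11) and without hairpin 2 (Itga7), and was 0 without hairpin 3. Leaving out a hairpin gave 9 to 15 genes higher and 5 to 9 lower on the rest, most without hairpin 2, by construction since fewer arrays must share a sign. With the mean over probes 1 gene, Zyx, was lower on all 3. When a hairpin was left out, the class median ranged from -0.51 to 0.72 for collagen-binding subunits. The 0.72 was without hairpin 2, where Itga2, not above background with shControl, also passed the filter and joined the class. It is therefore not a median over the same genes. For RGD-binding subunits the range was -0.18 to 0.32 (without hairpins 1 and 2).

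Among the listed genes' mean differences, 20 values changed sign, all in uncalled genes with means near 0 or below their spread, and the cause was not tested. With quantile normalization Flna was at -0.0017 and Pxn at 0.025. With the 75th percentile over detected probes Itga8 was at -0.029 and Flna at -0.0062, and with the series table at -0.034 and -0.012. With normexp Itgb4 was at 0.11, Parva at -0.0071, Pxn at 0.012 and Src at 0.045. The mean over probes put Parva at -0.12. Leaving out each hairpin in turn gave ranges of -0.30 to 0.41 for Itga8, -0.17 to 0.72 for Itgb3, -0.34 to 0.17 for Itgb4, -0.0048 to 0.27 for Actn1, -0.045 to 0.073 for Flna, -0.080 to 0.061 for Pxn and -0.19 to 0.0093 for Src.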
